A study of Mus musculus with 12 samples.

Results

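Receptor-type protein tyrosine phosphatase genes Ptprs, Ptprd, Ptprf, Ptprg, Ptprz1, Ptpra, Ptpre, Ptprk, Ptprm and Ptprt were followed through RNA sequencing of the external granule layer of the mouse cerebellum. They were taken by name as 10 of the 53379 genes in the count tables, and all 10 passed the filter on low counts. The list was chosen by name with the knockout and wild-type values of these libraries already known, so the difference between the genotypes is described for these genes and is not offered as a test of them. This layer holds the dividing precursors of granule neurons and was laser-captured from the central lobules of C57BL/6 mice at postnatal day 6. In one group SnoN, the SMAD-binding product of the Skil gene, was conditionally deleted; the other held wild-type littermates. The labels name neither the deleted exons nor the Cre driver, and do not say whether each library came from its own animal, so the spread between libraries may be partly technical.

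There were 6 wild-type libraries (WT1, WT2, WT3, WT5, WT6 and WT7) and 6 knockout libraries (KO2, KO3, KO4, KO5, KO6 and KO8), with 7520076 to 15083086 reads counted in genes. Sample descriptions mark WT2 and KO4 as outliers, so the genotypes were compared over the other 5 libraries of each, and the marked libraries are given beside them for the 10 genes. KO2 is knockout by its title but wild type by its genotype tag; it was kept as knockout. Skil averaged 49.9 ± 7.98 CPM (SD, n = 5) without the deletion and 30.7 ± 6.38 CPM (SD, n = 5) with it. Every compared knockout library lay below every compared wild-type one, the closest being KO3 (36.7 CPM), KO2 (36.1 CPM) and WT6 (38.5 CPM). The marked libraries kept this order, with WT2 at 76.5 CPM and KO4 at 14 CPM. The log2 fold change of Skil was -0.70 (SE 0.15, edgeR adjusted p = 0.124), so the deleted gene did not itself pass the adjusted threshold. CPM is the depth-scaled read count, here with TMM factors between libraries. The granule markers Zic1 and Neurod1 were abundant (801 and 2580 CPM in wild type), while Gabra6, a gene of mature granule neurons, had no count in wild type.

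Receptor tyrosine phosphatases span the membrane, bind ligands or neighbouring cells through their outer part, and remove phosphate from tyrosines through 1 or 2 inner phosphatase domains. Ptprs, Ptprd and Ptprf form the LAR type, which reads heparan and chondroitin sulphate proteoglycans in growing axons and organises synapses with postsynaptic partners. Ptprg and Ptprz1 carry a carbonic anhydrase-like outer domain and bind contactins; Ptprz1 also binds pleiotrophin and midkine. Ptpra and Ptpre have short outer parts, and Ptpra activates Src family kinases. Ptprk, Ptprm and Ptprt bind copies of themselves on adjacent cells.

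The catalytic loop is what these genes have in common, and its coding sequence is shown to compare them. A search of each gene's longest reading frame (GENCODE M21 transcripts, GRCm38) for histidine, cysteine, any 2 residues, glycine, any 2 residues, and arginine or glycine found 2 such loops in 8 genes and 1 in Ptprg and Ptprz1, whose second domain is known to lack the catalytic cysteine. The first loop of 9 of the genes is given over 30 bases, 5′ to 3′, with the cysteine codon in capitals.
Ptprs: cacTGCagcgcgggtgtggggcgcactggc
Ptprd: cacTGCagtgctggtgttggcagaactggc
Ptprf: catTGCagtgcgggtgtggggcgcacaggc
Ptprg: cacTGCagcgctggtgtgggcaggacaggc
Ptprz1: cacTGCagtgctggcgtggggagaacgggg
Ptpra: cacTGCagtgcaggtgtagggcgcactggc
Ptpre: cacTGTagcgcgggcgtgggtcggactggc
Ptprk: cacTGCagtgctggtgctgggcgcacaggc
Ptprt: catTGCagtgctggagccgggaggactggc
Ptpre was the only one of these 9 with TGT in place of TGC. Against Ptpra, the other first loops shown matched at 23 (Ptprg, Ptprz1, Ptpre and Ptprt) to 27 (Ptprs) of 30 bases. The second loops of Ptprk and Ptprt, which are not shown, were less like it, with 20 and 19 of 30 bases equal.

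Ptprs, a receptor for proteoglycans of the matrix, had the highest level of the 10 for its length. In wild type it reached 29.1 ± 3.39 CPM per kb of merged exons (SD, n = 5). Ptprg followed at 10.4 ± 1.78, Ptpra at 7.71 ± 0.534, Ptprf at 6.75 ± 0.654 and Ptprd at 4.91 ± 0.372 CPM per kb. Lower still were Ptprk at 2.1 ± 0.457 and Ptprz1 at 1.71 ± 0.584 CPM per kb. The lowest were Ptprt at 0.567 ± 0.129, Ptprm at 0.328 ± 0.0933 and Ptpre at 0.174 ± 0.0626 CPM per kb. The wild-type ranges overlapped between Ptpra and Ptprf, between Ptprk and Ptprz1, between Ptprt and Ptprm, and between Ptprm and Ptpre; other neighbours in the order did not overlap. In knockout the means of Ptprd (7.4 CPM per kb) and Ptprf (5.72 CPM per kb) stood in the opposite order, as did those of Ptprz1 (2.56) and Ptprk (2.23), and of Ptprm (0.596) and Ptprt (0.579), and in each of these pairs the knockout ranges overlapped. In knockout the ranges of Ptprs and Ptprg also overlapped. Merged exons count every annotated isoform. By the longest transcript instead the wild-type order of Ptprg (12.4 CPM per kb), Ptpra (15.7) and Ptprd (11.3) changed, while Ptprs remained first (63.7).

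**Figure D1:**
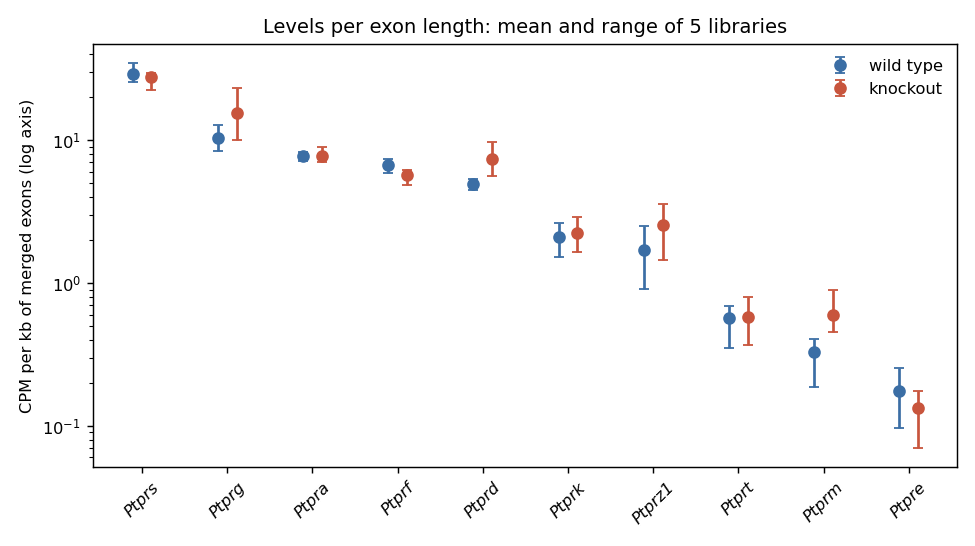
CPM per kb of merged exons (log axis) for the 10 genes, ordered by the wild-type mean; points are means and bars the range of 5 libraries of each genotype. Ptprs stands at the top (29.1 in wild type) and Ptpre at the bottom (0.174).

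Ptprd, Ptprm, Ptprg and Ptprz1 had higher means in the SnoN knockout with an unadjusted p under 0.05, Ptprf had a lower one, and the other 5 genes showed differences within their error. Of all 13442 genes tested with edgeR's quasi-likelihood test, 0.0223% reached an adjusted p of 0.05 (0.0149% higher and 0.00744% lower), and 0 of the 10 were among them; without KO5, 3102 genes and 2 of the 10 passed. An unadjusted p below 0.05 was reached by 21.8% of all genes, 11.8% with the higher mean in knockout and 9.97% with the lower. The median log2 fold change of the 10 was 0.06, against 0.00 for all genes tested. Its sign turned without KO2, when it was -0.04 (4 genes higher, 6 lower), and with KO2 as wild type -0.08; without KO5 it was 0.14. For Ptprd and Ptprm the 5 libraries of each genotype did not overlap, which was so for 2.35% of all genes tested. In tissue samples like these, a change in the number of cells of one type and a change in RNA per cell cannot be told apart.

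**Figure D2:**
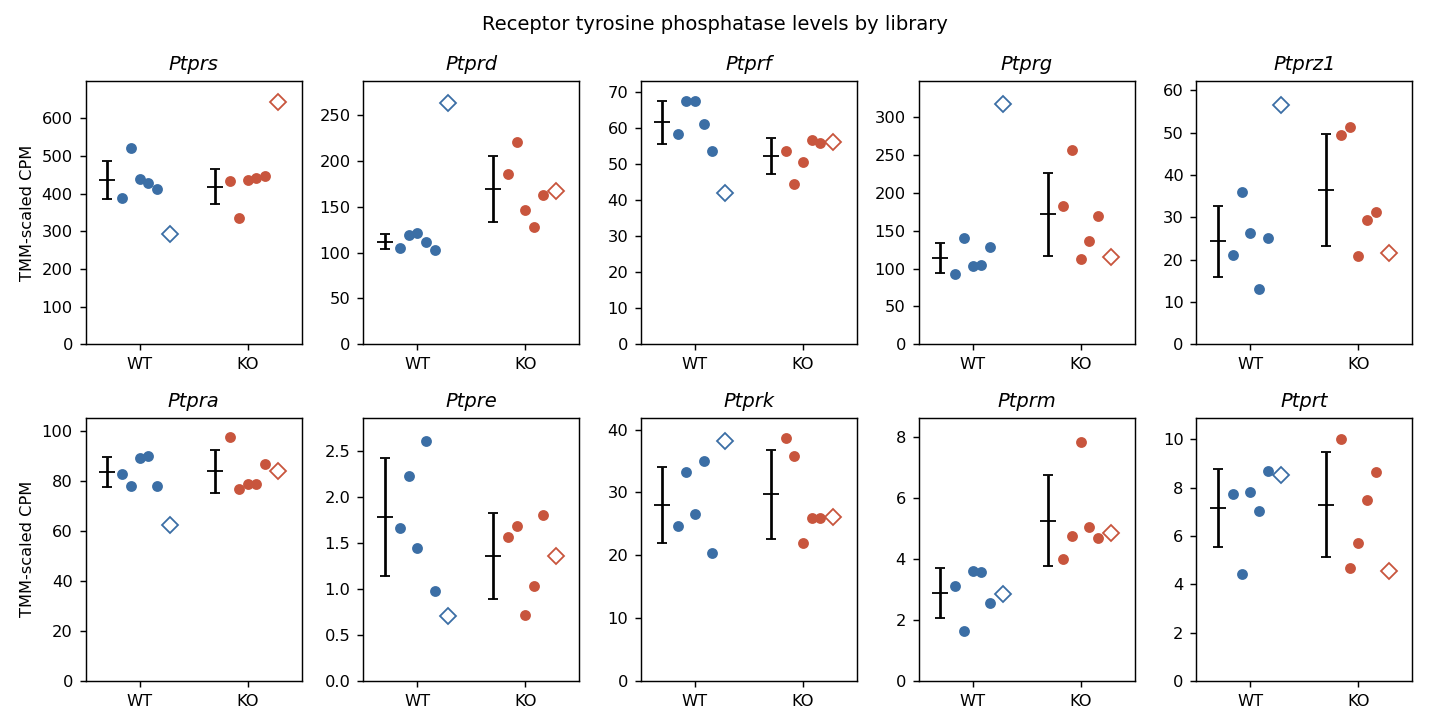
TMM-scaled CPM of each gene in each library; filled circles are the compared libraries, open diamonds the marked WT2 and KO4, and black bars the mean ± SD of 5 libraries. The knockout circles of Ptprd and Ptprm lie above all wild-type circles, and the diamonds of Ptprd and Ptprg lie in the opposite order.

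Among the LAR type genes, Ptprd, which pairs with synaptic adhesion proteins such as Slitrks and Il1rapl1, had the smallest unadjusted p of the 10. Its wild-type levels were 105 (WT1), 119 (WT3), 121 (WT5), 112 (WT6) and 103 (WT7) CPM, and its knockout levels were 186 (KO2), 221 (KO3), 147 (KO5), 128 (KO6) and 163 (KO8) CPM. The wild-type libraries lay close together and below all knockout libraries, which spread more widely. The means were 112 ± 8.49 and 169 ± 36.0 CPM (SD, n = 5 each), which gave a log2 difference of 0.59 (SE 0.13, edgeR unadjusted p = 1.95e-04, adjusted p = 0.124). The marked wild-type library WT2 stood above all others at 263 CPM and the marked knockout library KO4 was at 167 CPM. With KO4 alone added the log2 fold change was 0.59, and with WT2 alone added it was 0.30. Over all 12 libraries it was 0.30 (edgeR adjusted p = 0.999, in a fit where 0.00751% of genes passed). Ptprd passed in edgeR without KO5 (adjusted p = 0.00123), in a fit where 3102 of 13562 genes passed. It also passed in DESeq2 with all 10 libraries (adjusted p = 0.0104), where 449 of 13442 genes passed. The gene spans 75941238 to 78211961 on chromosome 4 (GRCm38, minus strand), and an annotated gene of the opposite strand, B230208B08Rik, shares exon sequence with it; the library kit does not mark strand.

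Ptprs, the most abundant of the 10, had nearly equal means in the genotypes. It was at 387 (WT1), 521 (WT3), 438 (WT5), 427 (WT6) and 411 (WT7) CPM, and at 433 (KO2), 336 (KO3), 435 (KO5), 441 (KO6) and 446 (KO8) CPM. Within knockout, 4 libraries fell within 433 to 446 CPM, inside the wild-type range, and KO3 lay below it. The log2 fold change was -0.06 (SE 0.11, adjusted p = 0.763). The marked libraries stood at the extremes, WT2 lowest at 294 CPM and KO4 highest at 642 CPM, and the sign turned when they were included (log2 fold change 0.14, adjusted p = 0.999).

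Ptprf, the founding LAR gene, had the lower mean in knockout. Wild-type levels were 58.3 (WT1), 67.7 (WT3), 67.5 (WT5), 61.3 (WT6) and 53.8 (WT7) CPM, and knockout levels were 53.6 (KO2), 44.6 (KO3), 50.7 (KO5), 56.7 (KO6) and 55.9 (KO8) CPM. The genotypes overlapped through WT7, the lowest wild-type library. The means were 61.7 ± 5.98 and 52.3 ± 4.89 CPM (SD, n = 5 each), which gave a log2 difference of -0.24 (SE 0.11, edgeR unadjusted p = 0.0404, adjusted p = 0.211). WT2 was lower than all 11 other libraries at 42.0 CPM, and KO4 was at 56.3 CPM; over all 12 libraries the log2 fold change was -0.14 (edgeR unadjusted p = 0.27, adjusted p = 0.999).

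Ptprg, a contactin receptor with a carbonic anhydrase-like domain, had a higher mean in knockout that rested mainly on KO2, KO3 and KO8. It was at 92.9 (WT1), 141 (WT3), 103 (WT5), 105 (WT6) and 128 (WT7) CPM, and at 183 (KO2), 257 (KO3), 112 (KO5), 137 (KO6) and 170 (KO8) CPM. KO5 and KO6 lay within the wild-type range and the other 3 knockout libraries above it. The means were 114 ± 19.6 and 172 ± 55.4 CPM (SD, n = 5 each), which gave a log2 difference of 0.59 (SE 0.18, edgeR unadjusted p = 0.00437, adjusted p = 0.131). WT2 was highest of all at 317 CPM, KO4 stood at 115 CPM, and with both included the log2 fold change was 0.14 (edgeR adjusted p = 0.999). With KO4 alone added it was 0.51, and with WT2 alone added 0.21. Ptprg passed in edgeR without KO5 (adjusted p = 0.00414), in a fit where 3102 of 13562 genes passed. It also passed in DESeq2 with all 10 libraries (adjusted p = 0.0466), where 449 of 13442 genes passed. An annotated gene of the opposite strand, Gm48603, shares exon sequence with it.

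Ptprz1, the receptor for pleiotrophin and midkine that is known from radial and Bergmann glia and from oligodendrocyte precursors, varied widely within each genotype. Wild-type levels were 21.1 (WT1), 35.9 (WT3), 26.4 (WT5), 13 (WT6) and 25.2 (WT7) CPM, and knockout levels were 49.5 (KO2), 51.3 (KO3), 20.9 (KO5), 29.4 (KO6) and 31.2 (KO8) CPM. KO2 and KO3 lay above the wild-type range and the other 3 within it. The means were 24.3 ± 8.32 and 36.5 ± 13.3 CPM (SD, n = 5 each), which gave a log2 difference of 0.58 (SE 0.25, edgeR unadjusted p = 0.0366, adjusted p = 0.201). The marked WT2 reached 56.5 CPM and KO4 21.5 CPM, and with both included the log2 fold change was 0.20 (adjusted p = 0.999); with KO2 counted as wild type by its tag it was 0.22 (adjusted p = 0.854).

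Markers of glia were measured beside Ptprz1. The 10 Bergmann glia and astrocyte markers summed to 616 to 1030 CPM in the wild-type and 840 to 1300 CPM in the knockout libraries, and 6 of them had higher and 4 lower means in knockout (median log2 fold change 0.02), with an unadjusted p below 0.05 for 2, both higher. The marked WT2 summed to 2070 CPM and KO4 to 900 CPM. Fabp7 (513 CPM in wild type, 688 in knockout) and the glutamate transporter Slc1a3 (181 and 212 CPM) had the most reads of them. The 7 oligodendrocyte lineage markers, led by Pdgfra (248 and 250 CPM) and Mbp (58.7 and 45 CPM), summed to 302 to 370 CPM in wild type and 293 to 314 CPM in knockout. Of the 6 tested, 3 had an unadjusted p below 0.05, all with lower means in knockout (median -0.46), and for Mbp the genotypes did not overlap. Purkinje cell markers, 8 in number and led by Car8 (121 and 164 CPM) and Calb1 (90.1 and 138 CPM), summed to 331 to 442 CPM in wild type and 402 to 660 CPM in knockout; WT2 summed to 800 CPM and KO4 to 381 CPM. All 7 tested had higher means in knockout (median 0.40), 4 of them with an unadjusted p below 0.05. Of all genes tested, 11.8% had an edgeR unadjusted p below 0.05 with the higher mean in knockout and 9.97% with the lower. The genotypes did not overlap for 2.35% of all genes tested. The part of glia and Purkinje cells in the levels of Ptprz1, Ptprd and Ptprg was not tested.

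Ptpra, the Src-activating phosphatase, had nearly equal means in the genotypes. It ranged from 77.9 to 90.1 CPM in the 5 wild-type and from 76.7 to 97.6 CPM in the 5 knockout libraries, with means of 83.6 ± 5.80 and 83.8 ± 8.66 CPM (SD, n = 5 each) and a log2 difference of 0.005 (SE 0.10; edgeR adjusted p = 0.982). The marked libraries were at 62.3 CPM (WT2, below all others) and 84 CPM (KO4). Its close relative Ptpre was near the lower limit of detection, with 8 reads in its lowest compared library. Ptpre ranged from 0.981 to 2.60 CPM in wild type and from 0.713 to 1.80 CPM in knockout, with a log2 difference of -0.36 (SE 0.38; edgeR adjusted p = 0.603), and at this depth a difference of that size could not be resolved. In the marked libraries Ptpre was at 0.709 CPM (WT2) and 1.36 CPM (KO4). Both genes share exon sequence with an annotated gene of the opposite strand.

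Of the 3 genes whose products bind themselves across cell contacts, Ptprm had non-overlapping levels in the genotypes, and the differences of Ptprk and Ptprt were within their error. Ptprm was at 3.11 (WT1), 1.64 (WT3), 3.6 (WT5), 3.59 (WT6) and 2.55 (WT7) CPM, and at 3.99 (KO2), 4.76 (KO3), 7.84 (KO5), 5.04 (KO6) and 4.68 (KO8) CPM. Every knockout library lay above every wild-type library, at low levels that rest on as few as 17 reads. The means were 2.90 ± 0.824 and 5.26 ± 1.49 CPM (SD, n = 5 each), which gave a log2 difference of 0.87 (SE 0.27, edgeR unadjusted p = 0.00478, adjusted p = 0.132). Unlike those of Ptprd and Ptprg, the marked libraries kept this order, at 2.84 CPM (WT2) and 4.87 CPM (KO4), and with them the log2 fold change was 0.85 (edgeR unadjusted p = 0.00247, adjusted p = 0.999). Ptprm shares exon sequence with an annotated gene of its own strand, AC139750.1, and its reads in the shared part are therefore uncertain.

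Ptprk ranged from 20.4 to 35.0 CPM in wild type and from 22 to 38.6 CPM in knockout, with a log2 difference of 0.09 (SE 0.17; edgeR adjusted p = 0.782). Ptprt ranged from 4.44 to 8.70 CPM in wild type and from 4.67 to 10 CPM in knockout, with a log2 difference of 0.03 (SE 0.23; edgeR adjusted p = 0.958). For both, the genotypes overlapped over most of their range. The marked WT2 and KO4 were at 38.2 and 26.1 CPM for Ptprk and at 8.51 and 4.57 CPM for Ptprt.

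**Figure D3:**
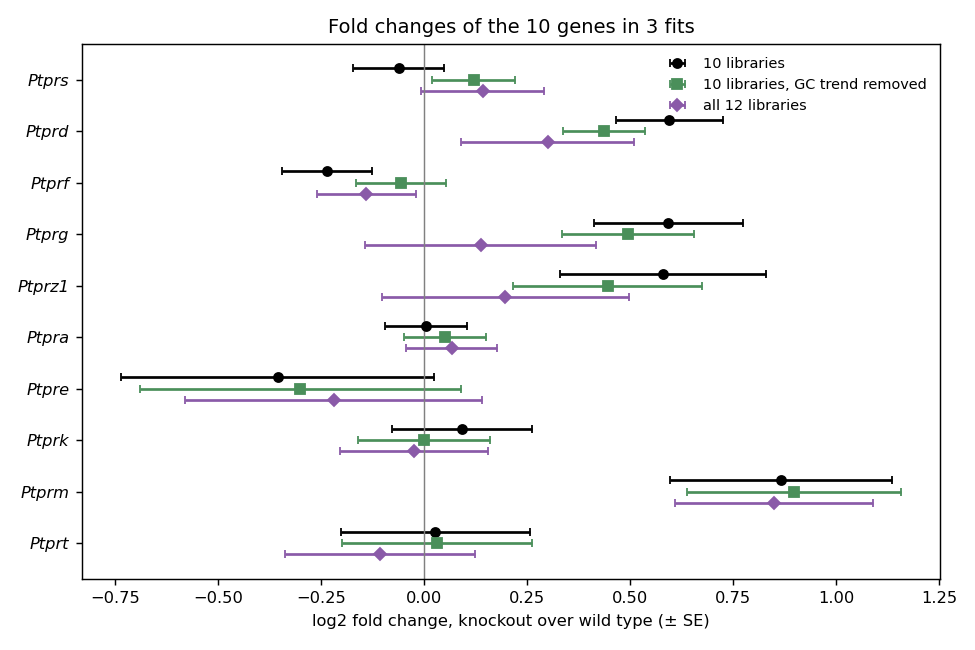
Log2 fold change of knockout over wild type with its standard error for the 10 genes in 3 fits: 10 libraries, 10 libraries with each library's GC trend removed, and all 12 libraries. Ptprm stays near 0.87 in all 3 fits, while Ptprg moves from 0.59 to 0.14 and Ptprd from 0.59 to 0.30 when WT2 and KO4 are included.

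The base composition of the transcripts differed among the 10 genes. It is set beside their differences here, and whether it caused them was not tested. Ptprd (43.8% GC), Ptprz1 (44.5%), Ptprg (45.7%) and Ptprk (45.8%) were low in GC and Ptprf (58.1%) and Ptprs (60.3%) were high, with Ptprt, Ptprm, Ptpra and Ptpre between 48.6% and 50.3%. Over all genes tested, the 3358 genes lowest in GC (up to 44.5%) had a median log2 fold change of 0.23 and the 3358 highest (from 54.3%) one of -0.17. Each library's slope of log2 CPM on GC content was steepest in WT2 (-0.0867 per percentage point), followed by KO3 (-0.0619), KO2 (-0.0601) and KO8 (-0.0586). The remaining 8 libraries had slopes of -0.0393 to -0.0119. Those same 4 libraries held the 4 highest values of Ptprg (317, 257, 183 and 170 CPM in that order), and WT2, KO3 and KO2 held the 3 highest of Ptprd and of Ptprz1. Ptprm did not follow that order, since its highest value was in KO5, whose slope of -0.0206 lay among those of the wild-type libraries. Ptprd in KO5, at 147 CPM, was also above all 5 compared wild-type libraries.

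With each library's GC trend removed, 0.0223% of genes passed with a higher and 0.0149% with a lower mean in knockout, none of the 10 among them. The log2 fold changes were 0.44 for Ptprd (SE 0.10, edgeR unadjusted p = 4.16e-04, adjusted p = 0.132), 0.49 for Ptprg (SE 0.16, adjusted p = 0.205), 0.45 for Ptprz1 (SE 0.23, adjusted p = 0.367) and 0.90 for Ptprm (SE 0.26, adjusted p = 0.172). Ptprf went to -0.06 (SE 0.11, adjusted p = 0.842) and the sign of Ptprs turned to 0.12 (SE 0.10, adjusted p = 0.6).

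**Figure D4:**
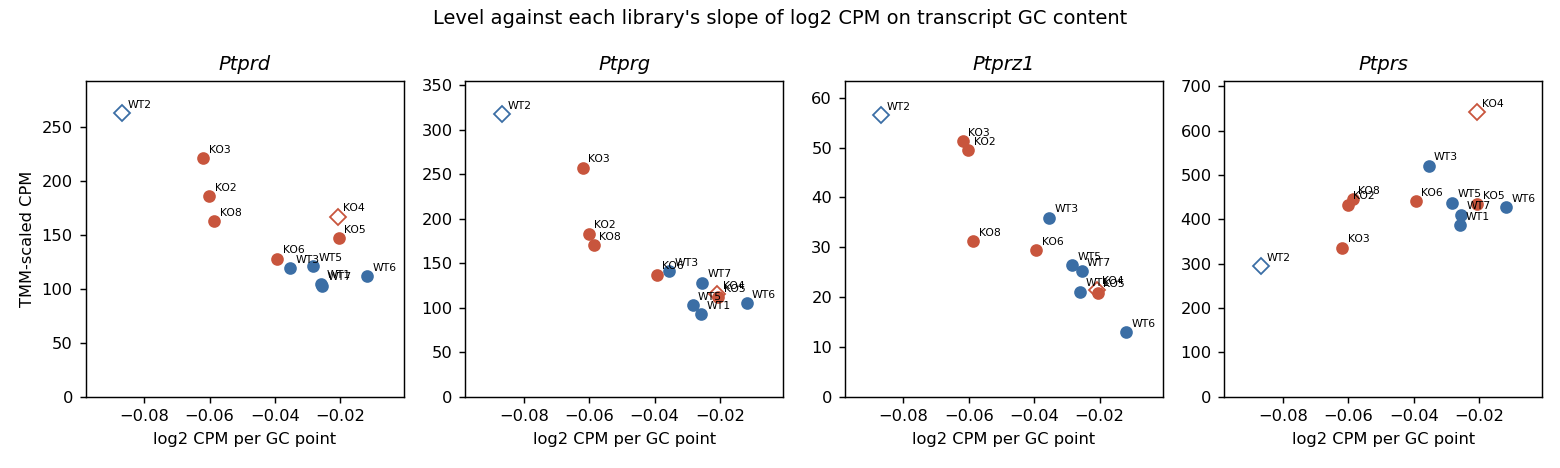
TMM-scaled CPM of 4 genes against each library's slope of log2 CPM on transcript GC content, for all 12 libraries (blue wild type, red knockout, open diamonds WT2 and KO4). The steepest slope belongs to WT2 (-0.0867), which has the highest Ptprd, Ptprg and Ptprz1 and the lowest Ptprs.

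Of the 10 genes, 5 (Ptprd, Ptprt, Ptprg, Ptprm and Ptprk) span over 500 kb of the genome, as do 1.41% of the genes tested. The 190 genes of that span had a median log2 fold change of 0.27, and the 5 had values of 0.59, 0.03, 0.59, 0.87 and 0.09 in that order. The longest was Ptprd at 2270 kb.

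Within the genotypes, some of these genes varied together over the 10 compared libraries. After each genotype's mean was subtracted from log2 CPM, Pearson's r was 0.76 between Ptprd and Ptprg, 0.78 between Ptprg and Ptprz1 and 0.63 between Ptprd and Ptprz1. It was 0.83 between Ptprs and Ptprf, the 2 genes high in GC, and -0.78 between Ptprm and Ptprz1. Other pairs reached like values, with 0.82 between Ptprk and Ptpre, although Ptpre had only 8 reads in its lowest compared library. Pearson's r was also 0.69 between Ptprd and Ptprk, 0.67 between Ptpra and Ptprt and -0.7 between Ptprm and Ptprg. These are descriptions of 10 libraries that share a scaling and differ in GC slope. Likeness to other genes was taken without subtracting the genotype means, so those r values include the difference between the genotypes. Among 10041 other genes of at least 5 CPM, those most like Ptprd over the 10 libraries were Tmem229a (r = 0.972), Wasf1 (0.971), Tnrc6a (0.968), Rbms3 (0.962) and Rpl15 (0.957). Those most like Ptprz1 were Mdga2 (r = 0.978), Trappc8 (0.977), Col6a3 (0.969), Rnf103 (0.968) and Sparcl1 (0.963).

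SnoN acts with SMAD proteins, which bind the short element CAGAC, so the promoters were searched for it on both strands. RefSeq windows of 300 bases (250 before to 50 after a start, GRCm38.p6) were found for 9 of the 10 genes, 13 windows in all. Of these, 4 held the element, as did 49.6% of the 32851 windows of that length, and none of the 13 held the palindrome GTCTAGAC, which contains no CAGAC and was in 0.213% of all windows. The promoters of Ptprg, whose knockout mean was higher, and Ptprf, whose knockout mean was lower, are shown 5′ to 3′ on the gene's strand, with CAGAC or its complement in capitals. Ptprg has 2 windows, chr14:11553303-11553602 and chr14:12189693-12189992 (both plus strand), and Ptprf has 1, chr4:118291348-118291647 (minus strand).
Ptprg, first window: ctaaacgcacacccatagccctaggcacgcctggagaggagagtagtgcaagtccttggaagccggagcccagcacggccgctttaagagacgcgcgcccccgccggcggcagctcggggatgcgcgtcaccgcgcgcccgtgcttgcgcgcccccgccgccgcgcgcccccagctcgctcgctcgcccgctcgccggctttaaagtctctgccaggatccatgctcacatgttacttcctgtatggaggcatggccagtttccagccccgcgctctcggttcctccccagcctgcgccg
Ptprg, second window: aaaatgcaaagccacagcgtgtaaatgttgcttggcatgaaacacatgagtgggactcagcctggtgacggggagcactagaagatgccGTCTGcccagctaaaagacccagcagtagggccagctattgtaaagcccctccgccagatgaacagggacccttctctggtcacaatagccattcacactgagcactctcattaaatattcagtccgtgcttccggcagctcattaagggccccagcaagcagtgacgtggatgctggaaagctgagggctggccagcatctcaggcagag
Ptprf: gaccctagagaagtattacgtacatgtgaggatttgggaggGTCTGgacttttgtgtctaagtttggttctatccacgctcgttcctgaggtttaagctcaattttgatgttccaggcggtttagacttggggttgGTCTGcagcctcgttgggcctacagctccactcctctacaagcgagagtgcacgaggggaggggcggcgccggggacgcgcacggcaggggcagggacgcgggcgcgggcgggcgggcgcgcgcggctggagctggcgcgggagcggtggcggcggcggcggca
The first Ptprg window held 0 copies, the second held 1 and the Ptprf window held 2; the other 2 windows with the element were both of Ptpre. A match of letters does not show that a protein binds there.

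The rest of the receptor phosphatase family held 1 gene, Ptpro, that stood per kb of exons above Ptprk (3.06 against 2.1 CPM per kb in wild type). Of 11 further genes, 8 were tested and none passed, and the median log2 fold change was 0.13. An edgeR unadjusted p below 0.05 with the higher mean in knockout was found for 2, beside 11.8% of all genes tested. Without KO5, 2 of the 8 passed, beside 3102 of 13562 genes in all. Ptpro, a receptor of axons and podocytes, averaged 20.6 ± 4.58 CPM (wild type) and 27.7 ± 6.18 CPM (knockout; SD, n = 5 each; log2 fold change 0.43, edgeR adjusted p = 0.183), and Ptprr, which acts on ERK kinases, at 10.2 ± 1.89 and 13.9 ± 2.97 CPM (0.45, adjusted p = 0.176). The marked WT2 stood above KO4 for both, at 28.2 and 23.2 CPM for Ptpro and at 17.5 and 8.95 CPM for Ptprr. Endothelial Ptprb was at 7.83 and 8.87 CPM, leukocyte Ptprc (CD45) at 1.31 and 1.38 CPM, and Ptprj at 4.21 and 4.48 CPM. The secretory granule proteins Ptprn and Ptprn2 were at 3.14 and 3.74 CPM and at 5.49 and 4.36 CPM, and Ptpru at 4.22 and 2.78 CPM. Ptprh and Ptprv were too low to test and Ptprq had no count in any library.

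The ligands pleiotrophin and midkine were detected in every library, but some listed partners, such as Acan, had no count in most. Pleiotrophin (Ptn), which binds Ptprz1, averaged 1830 ± 239 CPM (wild type) and 2110 ± 411 CPM (knockout; SD, n = 5 each; log2 fold change 0.20, SE 0.14, edgeR adjusted p = 0.398), and midkine (Mdk) at 255 ± 42.2 and 233 ± 39.2 CPM (-0.12, adjusted p = 0.585). Of 34 extracellular partners, 30 were tested and none passed, with a median log2 fold change of 0.07. An edgeR unadjusted p below 0.05 was found for 4 with higher and 2 with lower means, beside 11.8% and 9.97% of all genes tested. Without KO5, 7 of the 30 passed, beside 3102 of 13562 genes in all. Cntn1, a contactin that binds Ptprz1, was at 66.3 ± 12.8 and 103 ± 32.8 CPM (0.64, SE 0.20, adjusted p = 0.133), at 140 CPM (WT2) and 60.1 CPM (KO4) in the marked libraries. The LAR type partners Slitrk5 (69.6 and 90.9 CPM) and Slitrk4 (7.62 and 10.9 CPM) and the matrix protein Tnc (17.9 and 24.0 CPM) had higher means in knockout. The glypicans Gpc2 (3.05 and 1.69 CPM, without overlap between the genotypes) and Gpc6 (3.40 and 1.97 CPM), the LAR partner Lrrc4b (41.6 and 33.1 CPM) and the proteoglycan Agrn (52.1 and 43.0 CPM) had lower ones. The marked libraries ran opposite to these means for Ptn (2900 CPM in WT2, 1780 in KO4), Mdk (168, 344), Slitrk4 (19.4, 7.2), Tnc (34.6, 21.1), Gpc6 (1.42, 3.6), Lrrc4b (16.9, 52.1) and Agrn (38.3, 51.3), and in the same direction for Slitrk5 (88.9, 99) and Gpc2 (1.77, 1.17).

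Inside the cell, 25 of 26 partners were tested and none passed, with a median log2 fold change of -0.04. An edgeR unadjusted p below 0.05 was found for 4 with higher and 4 with lower means, beside 11.8% and 9.97% of all genes tested. Without KO5, 9 of the 25 passed, beside 3102 of 13562 genes in all. Trio, which binds LAR, was at 67.2 ± 11.1 and 89.7 ± 17.9 CPM (SD, n = 5 each; 0.42, SE 0.14, edgeR adjusted p = 0.145). The Src family kinase Yes1 (88.4 and 114 CPM), the liprin Ppfibp1 (22.2 and 30.1 CPM) and the scaffold Magi3 (15 and 18.9 CPM) also had higher means in knockout. The liprin Ppfia4 (2.81 and 1.5 CPM), the adaptor Grb2 (81.8 and 66.3 CPM), the kinase Src, which Ptpra activates (36.4 and 29.0 CPM), and its inhibitor Csk (76.6 and 63.2 CPM) had lower ones. The marked libraries ran opposite to the means for Yes1 (137 CPM in WT2, 87.9 in KO4), Ppfibp1 (40.1, 23.2), Magi3 (35, 12.8), Ppfia4 (1.77, 2.04), Grb2 (49.2, 86.7), Src (23.6, 29.7) and Csk (41, 100), and in the same direction for Trio (86.6, 91.6).

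**Figure D5:**
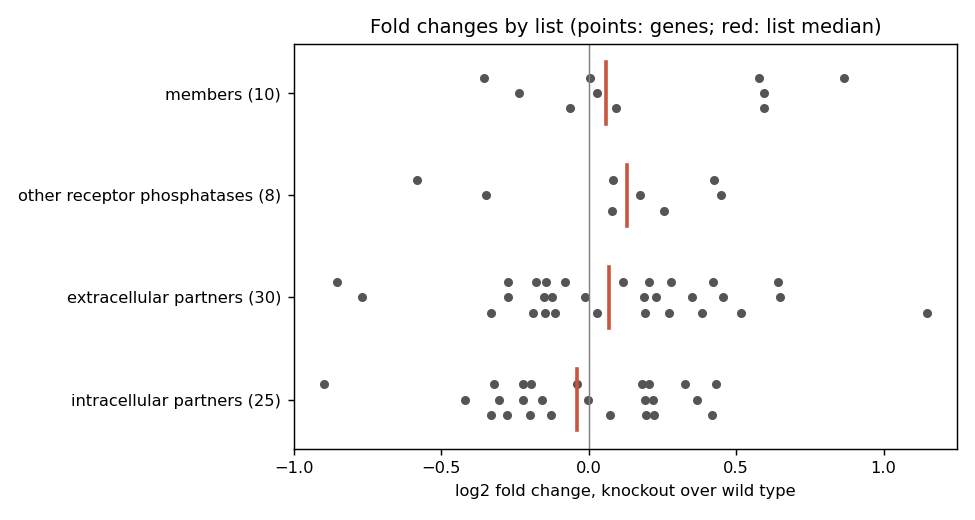
Log2 fold change of knockout over wild type for each tested gene (points, with the red line at the list median) among the 10 genes described here ("members"), the other receptor phosphatases, and the extracellular and intracellular partners. The list medians are 0.06, 0.13, 0.07 and -0.04, and by edgeR none of the genes shown reached an adjusted p of 0.05.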

How the data were processed

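The authors deposited unnormalized counts of reads for every gene and library, made with cutadapt 1.16, STAR 2.5.3a and HTSeq 0.6.1 on genome build mm10, per the submitters' processing notes; the strand setting and annotation release are not stated there. RNA came from an RNeasy Plus Micro kit and was sequenced after NEBNext Ultra preparation, per the labels' protocols. The 5 summary rows were left out; alignments to several places were 64.4% to 67.6% of all records. Of 53379 identifiers, 53274 matched GENCODE M21 (GRCm38), without their version numbers, which gave symbols, exon lengths and the GC content of each gene's longest transcript.

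Genes were filtered with filterByExpr (minimum count 10, 10 libraries), scaled by TMM and tested with edgeR 4.0.16 (quasi-likelihood, robust; R 4.3.3), with Benjamini-Hochberg adjustment over all 13442 genes and a threshold of 0.05. CPM values use factors over all 12 libraries. None of the 30 within-genotype pairs of libraries matched within sampling noise (chi-square over its degrees of freedom at least 6.51). Alternatives were DESeq2 1.42.0, RLE factors, library size alone, other filters (a total count of 1, or 1 CPM in 5 libraries), the marked libraries, KO2 by its tag, a GC trend offset (spline, 5 degrees of freedom), a replicate block and each library left out.

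The genes, partner and marker lists were chosen with earlier results of these data known. Named are all 10 genes, the other measured receptor phosphatases, and up to 4 partners per list and direction with the smallest unadjusted p. Also named are the 2 most abundant markers of the lists used, and the 5 genes most like Ptprd (smallest p of the 10) and Ptprz1. Ptn, Mdk, Zic1 and the markers of differentiating granule neurons were added after their values were seen. The procedure was tested on simulated counts. The catalytic loop sequence of Ptprm is not reported here.

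Marker lists not given in the report were, as summed CPM over the 5 wild-type and then the 5 knockout libraries, granule precursor 2550 to 2850 and 2790 to 3410, differentiating granule neuron 3640 to 6080 and 4420 to 7970, GABAergic interneuron 25.9 to 31.9 and 20.2 to 53.6, microglia 25.5 to 32.0 and 22.6 to 36.6, endothelium 191 to 256 and 171 to 306, meningeal fibroblast 445 to 781 and 429 to 813, and blood 364 to 680 and 413 to 701.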

Additional observations from a re-analysis of the deposited data

Results flagged for a closer look

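In 2 of the 20 groups of 5 libraries checked (10 genes, 2 genotypes), 1 library stood apart from the other 4, by a gap over 0.71 of the group's range; chance alone gives about 1 in 20. Ptprm in KO5 was at 7.84 CPM, with the nearest knockout library at 5.04 CPM, and without KO5 its log2 fold change was 0.68 in place of 0.87. Ptprs in KO3 was at 336 CPM, with the nearest at 433 CPM, and without KO3 its log2 fold change was 0.008 in place of -0.06.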

How the results depend on the processing

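Over 24 alternatives, 1 of them added after seeing the data (the GC offset without KO2), Ptprd (log2 fold change 0.22 to 0.68), Ptprg (0.13 to 0.71), Ptprz1 (0.17 to 0.76), Ptprm (0.68 to 1.04), Ptprf (-0.38 to -0.06) and Ptpre (-0.89 to -0.18) kept their sign; Ptprs turned in 8, Ptpra in 8, Ptprk in 9 and Ptprt in 12. Against 3 genes in all, 449 passed with DESeq2, 965 with no filter beyond a count of 1, 1 with all 12 libraries, 1 with KO4 kept, 5 with the GC trend offset and 0 with KO2 as wild type; leaving out 1 library gave 0 to 3102, the latter without KO5. Of the 10 genes, Ptprd and Ptprg (2) passed with DESeq2, with no filter and without KO5, and 0 otherwise (leave-one-out range 0 to 2). Other receptor phosphatases gave 0 to 2 with a library left out, extracellular partners 0 to 7 (1 with DESeq2, 2 with no filter) and intracellular partners 0 to 9 (1 with no filter). The median of the 10 turned below 0 with library size alone (-0.03, beside -0.08 for all genes; 4 higher and 6 lower), without KO2 (-0.04) and with KO2 as wild type (-0.08). The causes were not tested. DESeq2 gave no adjusted p for Ptprm and Ptpre.

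The replicate numbers of the titles were also used as a block, with 0 genes passing over 10 and 0 over 12 libraries, and a median of the 10 of -0.12 over 10 libraries. Deviations of same-numbered libraries correlated at 0.11, -0.05 and 0.09, and 0 of the 3 knockout libraries correlated best with its own number. These 3 pairs are too few to decide whether a number stands for a shared litter or preparation.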
